A study of Mus musculus with 191 samples.

Results

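2,2-Bis(bromomethyl)-1,3-propanediol (BBMP in the labels) is a brominated flame retardant that caused tumours at several sites, the lung among them, in rodent feeding bioassays. RNA of the right lung lobe was measured on Affymetrix mouse expression arrays in female B6C3F1 mice, a hybrid strain of such bioassays, after 13 weeks of feeding. The BBMP arrays are the 4 with that name in their titles, 4 of 52 in their array batch and 1 of 48 groups in the series, from mice given 1250 ppm BBMP in rodent chow on 7 days a week. They were set against the 4 arrays titled FCO2, from mice given the same chow at 0 ppm over the same time, in the same array batch. The mice were 18 weeks old at collection in both groups, each array is 1 mouse per the design text, and arrays are numbered 1 to 4 within a group by name only. The batch holds 52 arrays of 13 groups, of which 3 more received a chemical in chow for as long: malathion (MALA, 14800 ppm in the treatment label, 16000 in the titles), 4-nitroanthranilic acid (NAAC, 10000 ppm) and diazinon (DIAZ, 200 ppm). FCO2 is the chow control set of this batch.

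Cirbp, Akr1b8 and Lrg1 were given with the choice of these arrays. Cirbp encodes a cold-inducible RNA-binding protein, whose transcript rises when cells or tissues are mildly cooled and follows the daily cycle of body temperature, opposite to many heat shock genes. Akr1b8 encodes an aldo-keto reductase that reduces reactive aldehydes and belongs with the enzymes induced through NRF2, the transcription factor that KEAP1 releases when a cell meets electrophiles. Lrg1 encodes leucine-rich alpha-2-glycoprotein, a secreted acute phase protein made by liver, neutrophils and endothelium. NRF2 acts through the antioxidant response element, heat shock genes are driven through heat shock elements, and clock proteins act through E-boxes.

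The window from 250 bases before to 50 bases after an annotated start is shown for 5 genes of the groups described below, from RefSeq (GRCm38.p6), with motif matches in capitals. Cirbp (chr10:80167589-80167888, + strand) is shown for the mild cold-responsive element TCCCCGCC, known from this gene. Akr1b8 (chr6:34353896-34354195, + strand) and Txnrd1 (chr10:82858956-82859255, + strand) are shown for the antioxidant response element TGACNNNGC, Tef (chr15:81802423-81802722, + strand) for the E-box CACGTG, and Hsph1 (chr5:149636287-149636586, - strand) for a heat shock element written as GAA, TTC and GAA set 2 bases apart.
Cirbp: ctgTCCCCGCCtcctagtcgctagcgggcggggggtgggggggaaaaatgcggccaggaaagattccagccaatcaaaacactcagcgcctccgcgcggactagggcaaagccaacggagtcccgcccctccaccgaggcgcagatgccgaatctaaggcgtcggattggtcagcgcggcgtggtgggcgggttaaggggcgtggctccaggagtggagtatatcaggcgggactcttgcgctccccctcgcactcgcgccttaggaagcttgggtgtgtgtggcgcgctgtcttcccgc
Akr1b8: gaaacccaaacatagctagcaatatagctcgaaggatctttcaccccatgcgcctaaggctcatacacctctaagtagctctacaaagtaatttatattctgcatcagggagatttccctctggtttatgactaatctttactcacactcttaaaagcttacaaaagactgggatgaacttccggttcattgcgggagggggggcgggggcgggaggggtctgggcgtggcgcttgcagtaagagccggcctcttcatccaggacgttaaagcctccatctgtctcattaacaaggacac
Txnrd1: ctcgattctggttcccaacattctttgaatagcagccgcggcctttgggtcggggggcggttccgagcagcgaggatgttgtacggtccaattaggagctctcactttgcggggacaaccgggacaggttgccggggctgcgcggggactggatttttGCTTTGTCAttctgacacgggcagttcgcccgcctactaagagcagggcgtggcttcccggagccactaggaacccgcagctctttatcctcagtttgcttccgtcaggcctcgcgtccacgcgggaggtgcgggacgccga
Tef: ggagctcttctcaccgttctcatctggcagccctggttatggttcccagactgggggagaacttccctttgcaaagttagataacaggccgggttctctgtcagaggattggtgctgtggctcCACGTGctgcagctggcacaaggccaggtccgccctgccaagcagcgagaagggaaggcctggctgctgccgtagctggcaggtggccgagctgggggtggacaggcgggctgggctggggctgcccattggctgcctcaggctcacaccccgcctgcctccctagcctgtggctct
Hsph1: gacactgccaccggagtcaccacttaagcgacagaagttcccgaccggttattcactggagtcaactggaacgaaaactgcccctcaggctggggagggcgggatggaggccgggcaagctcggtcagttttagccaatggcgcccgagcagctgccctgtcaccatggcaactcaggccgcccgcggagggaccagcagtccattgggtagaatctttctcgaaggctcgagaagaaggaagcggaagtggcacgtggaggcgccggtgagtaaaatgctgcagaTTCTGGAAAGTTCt
Txnrd1 has 3 annotated windows and Cirbp 2, and the window shown is the only one of each with its motif. The motifs were found in both windows of Tef and of Hsph1. Both strands were searched, and no motif lies within another. TCCCCGCC was found in at least 1 window of 6.19% of all genes, TGACNNNGC in 14%, CACGTG in 8.09% and the heat shock element in 0.662%. The Akr1b8 window held no TGACNNNGC. Of the 31 NRF2 and glutathione genes with a window, 10 held TGACNNNGC, Txnrd1 and Srxn1 among them. Other lists had it too, with 6 of 19 clock, 7 of 27 ER stress and ATF4 and 5 of 16 glucocorticoid-responsive genes. None of 15 ciliated cell markers held it. Of the 19 cold-inducible and heat shock genes with a window, 6 held TCCCCGCC and 4 held the heat shock element. The 6 were Cirbp and the heat shock genes Bag3, Dnaja1, Dnajb1, Hspa1a and Hspa1b. CACGTG was found in 5 of 19 clock genes, Per1 and Tef among them. Each match describes letters only.

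The arrays of both groups had the same mean to 3 digits over all probe sets, since the deposited values are centred, but they differed in spread. The SD over all probe sets was 1.30, 1.21, 1.41 and 1.41 on the BBMP arrays, against 1.25, 1.23, 1.21 and 1.22 on the FCO2 arrays. The mean SD was 1.33 in BBMP and 1.23 in FCO2 (two-sided exact permutation test, p = 0.114, where 4 against 4 arrays allow no p below 0.0286). The beta-actin 3' minus 5' value, which grows as RNA breaks down, was 0.319 ± 0.029 in BBMP, against 0.521 ± 0.072 in FCO2 (SD, n = 4 each, exact p = 0.0286), and 0.0571 was the p after quantile normalization. All 4 BBMP samples had 10 µl of RNA sent to the array core, against 2 of 4 FCO2 samples, arrays 2 and 3. The absorbance at 260 nm in the labels was 0.302 to 0.569 for BBMP and 0.335 to 3.275 for FCO2. Lung-defining transcripts were near the top of the scale in both groups: surfactant protein C, Sftpc, averaged 6.57 in BBMP and 6.85 in FCO2, and the club cell secretoglobin Scgb1a1 6.41 and 6.74, on the log2 scale. The main results below are given as deposited and after quantile normalization within the batch, which gives all 52 arrays 1 distribution. Values with no scale named are as deposited.

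As deposited, 1411 genes were higher and 54 lower in BBMP than in FCO2 of 13524 tested, 10.4% and 0.399% of them, by limma at an adjusted p under 0.05. In all 10.8% were called. After quantile normalization the calls were 27 higher (0.2%) and 3 lower (0.0222%), 0.222% in all. Every BBMP array lay above every FCO2 array for 17.3% of genes as deposited and 9.92% after quantile normalization, and below for 3.37% and 7.46%. Of all genes tested, 24 (0.177%) were called the same way on both scales, 21 higher and 3 lower, which is 1.64% of the deposited calls and 80% of the calls after quantile normalization. The median difference of all genes was 0.10 as deposited and 0.01 after quantile normalization. As deposited it grew with the level of a gene, with a median of -0.04 over the 3381 genes of lowest mean level and of 0.09, 0.18 and 0.23 over the next 3 sets of that size. After quantile normalization these medians were -0.01, 0.01, 0.03 and 0.03. No gene called as deposited had the opposite sign afterwards, and 830 of the 1465 had the same sign with an unadjusted p under 0.05. The count also rests on single arrays: without BBMP array 3 it was 8 as deposited and 3 after quantile normalization, without FCO2 array 2 it was 55 and 7, without BBMP array 4 102 and 33, and without BBMP array 2 3084 and 19. Without FCO2 array 3 it was 391 and 17, without FCO2 array 4 644 and 14, without FCO2 array 1 1519 and 11, and without BBMP array 1 1109 and 3. With the spread taken from the 52 arrays of the batch alone, 149 genes were called as deposited and 0 after quantile normalization, where 1701 had an unadjusted p under 0.05 and the lowest adjusted p was 0.0813.

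**Figure D1:**
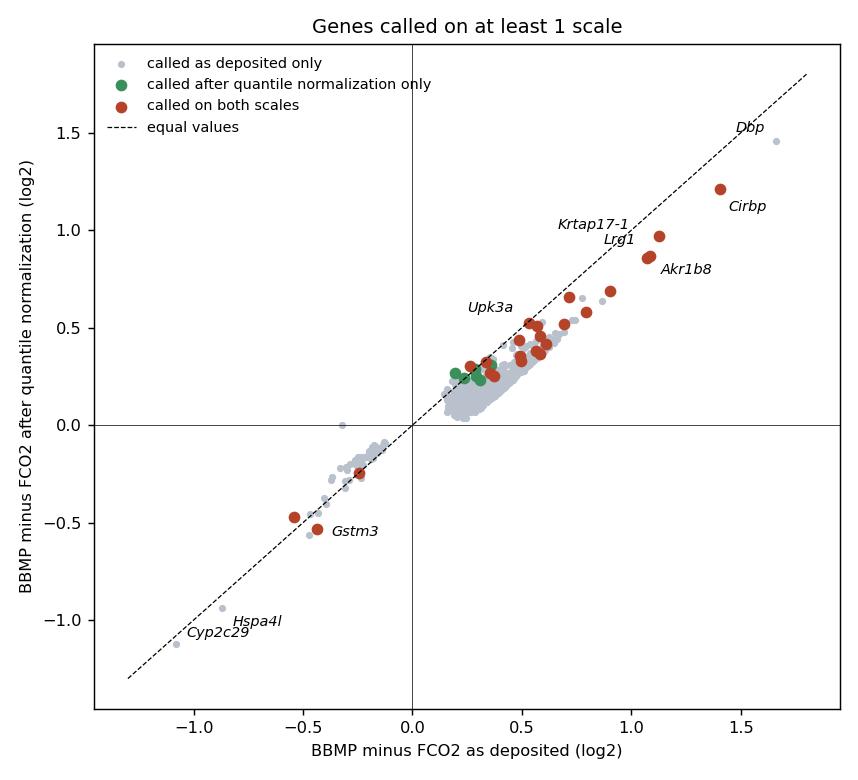
Difference of BBMP minus FCO2 (log2) as deposited on the x axis and after quantile normalization on the y axis, 1 point for each gene called on at least 1 scale; red points were called on both, green points after quantile normalization only, grey points as deposited only. Most grey points lie under the dashed line of equal values, so the rises were smaller after quantile normalization. Cirbp, Akr1b8, Lrg1 and Krtap17-1 lie toward the upper right, and the grey point of Dbp lies further out, at 1.66 and 1.46.

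Cirbp, the cold-inducible RNA-binding protein gene, was higher in every BBMP lung than in every FCO2 lung. Its level was 2.09, 1.33, 2.06 and 1.60 on the BBMP arrays, against 0.28, 0.49, 0.30 and 0.39 on the FCO2 arrays. The groups were far apart, and BBMP arrays 1 and 3 were the highest. The difference was 1.40 ± 0.24 on the log2 scale (SE, adjusted p = 7.62e-05), a 2.64-fold rise. After quantile normalization it was 1.21 ± 0.23 (adjusted p = 0.000871), again with no overlap. As deposited the call held without any 1 array, and after quantile normalization the adjusted p rose to 0.0503 without BBMP array 1. On the 10 µl arrays alone, 4 BBMP against 2 FCO2, the difference was 1.37 as deposited and 1.18 after quantile normalization, where it was not called (adjusted p = 0.0714). Within the 52 arrays of the batch the adjusted p was 0.0164 as deposited and 0.0813 after quantile normalization.

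Akr1b8 rose by 1.09 ± 0.18 in BBMP lungs (SE, adjusted p = 5.57e-05), 2.12-fold, and by 0.87 ± 0.16 after quantile normalization (adjusted p = 0.000871). The BBMP arrays read 2.85, 2.24, 2.99 and 1.72, against 1.95, 1.31, 0.95 and 1.24 on the FCO2 arrays. The groups overlapped, since BBMP array 4 lay below FCO2 array 1. After quantile normalization the call was lost without BBMP array 1 or without BBMP array 3 (highest adjusted p = 0.0855), and within the 52 arrays of the batch (adjusted p = 0.21).

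Lrg1 rose by 1.07 ± 0.23 (SE, adjusted p = 0.00296), 2.1-fold, and by 0.86 ± 0.21 after quantile normalization (adjusted p = 0.0382). Its levels were 3.51, 3.37, 4.00 and 3.17 in BBMP, against 2.69, 2.37, 2.02 and 2.68 in FCO2, with no overlap. It is the least stable of the 3 given genes: after quantile normalization its call held in 2 of 8 fits that left out an array, with adjusted p up to 0.396, and as deposited in 7 of 8. Without BBMP array 3 the deposited difference was 0.91 (adjusted p = 0.0922).

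Krtap17-1, which encodes a keratin-associated protein, had the lowest adjusted p of the named genes on both scales, together with Hdac6 as deposited and Upk3a after quantile normalization. Its level was 1.61, 1.73, 1.96 and 0.58 on the BBMP arrays, against 0.31, 0.43, 0.25 and 0.38 on the FCO2 arrays. Arrays 1 to 3 of BBMP stood well above array 4, which lay just above the highest FCO2 array. The difference was 1.12 ± 0.16 as deposited (adjusted p = 7.63e-07) and 0.97 ± 0.16 after quantile normalization (adjusted p = 6.89e-05). Upk3a, which encodes a uroplakin of the urothelial plaque and also marks a subset of club cells in mouse airways, had the same pattern. It read 0.37, 0.12, 0.29 and -0.52 on the BBMP arrays, against -0.44, -0.51, -0.46 and -0.45 on the FCO2 arrays. BBMP array 4 was thus no higher than the controls. Upk3a differed by 0.53 ± 0.09 on both scales (adjusted p = 5.57e-05 as deposited and 6.89e-05 after quantile normalization). Both genes were called in all 8 fits that left out an array, on both scales, the only named genes of which this held. These fits take their spread from the whole series. Within the 52 arrays of the batch after quantile normalization neither was called (adjusted p = 0.0813 for Krtap17-1 and 0.113 for Upk3a). On the arrays of the 2 groups alone, as deposited, Krtap17-1 was called (adjusted p = 0.0364) and Upk3a was not (0.0563). The SE of the Upk3a difference was 0.16 there, against 0.09 over the whole series.

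**Figure D2:**
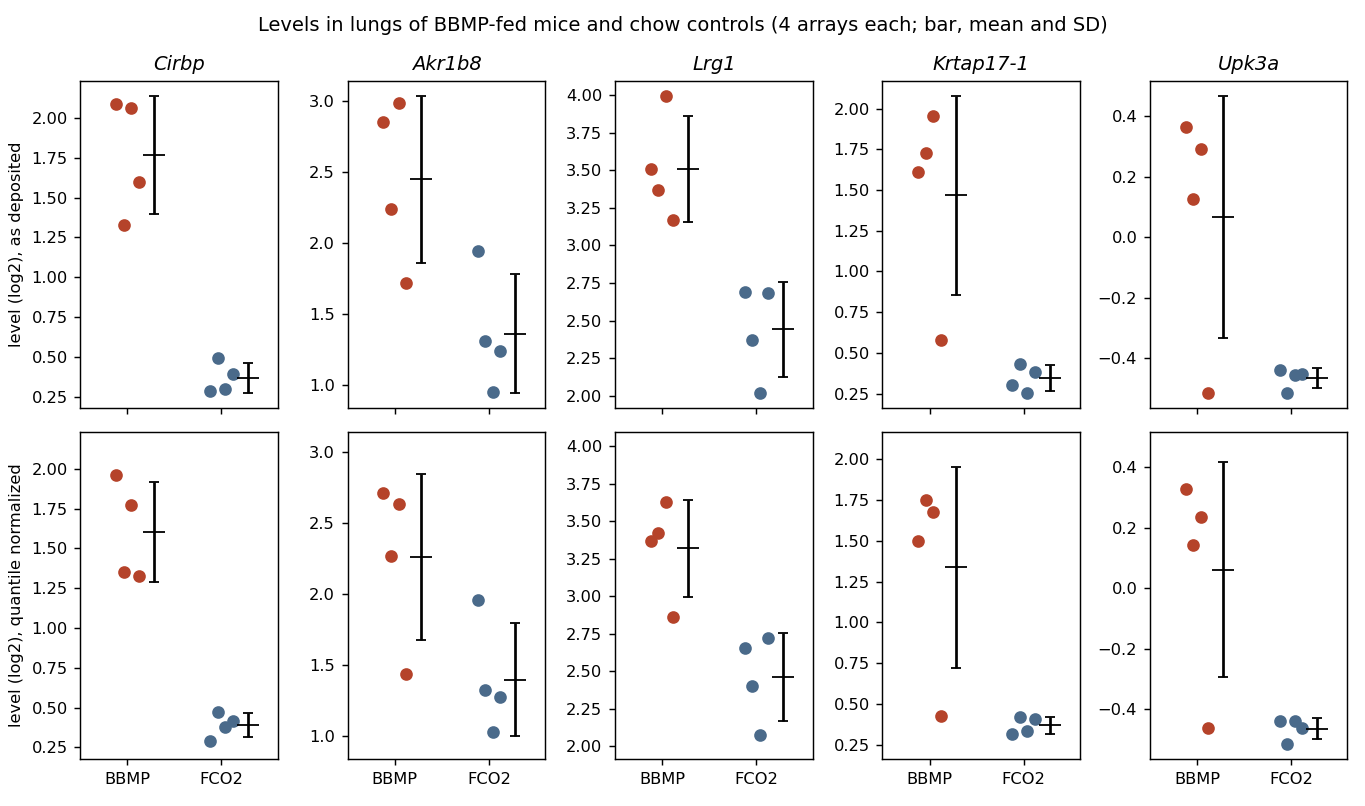
Level (log2) of 5 genes on the 4 BBMP and 4 FCO2 arrays, as deposited in the upper row and after quantile normalization in the lower row; points are arrays, and the bar is the mean with its SD. Cirbp and Lrg1 do not overlap between the groups on either scale, while 1 BBMP array lies at or near the FCO2 arrays for Akr1b8, Krtap17-1 and Upk3a.

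The other genes called higher on both scales were of mixed function. Tspan4, a tetraspanin of migrasomes, rose by 0.90 as deposited and 0.69 after quantile normalization, and Tmem37, a calcium channel subunit, by 0.79 and 0.58. Ces1g, a carboxylesterase of lipid and xenobiotic ester hydrolysis, rose by 0.71 and 0.66. Pfkfb3, which makes the activator of glycolytic phosphofructokinase, rose by 0.69 and 0.52. Igfbp4, a binding protein of insulin-like growth factors, rose by 0.58 and 0.46, and the tyrosine kinase Tnk2 by 0.61 and 0.42. Hdac6, the cytoplasmic deacetylase of tubulin and of Hsp90, rose by 0.49 ± 0.07 and 0.35 ± 0.06 (adjusted p = 7.63e-07 and 0.000579). Its levels of 0.91, 0.73, 1.21 and 0.75 in BBMP lay above the 0.46, 0.35, 0.31 and 0.52 in FCO2. The rest were Nqo1, Inpp5k, Mta2, Tubgcp2, Cldn23, Zfp512b, Mthfd1l, Zswim7 and Gzmk, with rises of 0.26 to 0.58 as deposited. Some of these genes have further, dimmer probe sets. Those of Igfbp4, Inpp5k and Pfkfb3 were also higher on both scales. That of Tnk2 differed by 0.05 as deposited and 0.07 after quantile normalization, and that of Zfp512b by -0.08 and -0.05.

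The 3 genes called lower on both scales were Gprin3, Gstm3 and Pogk. Gprin3, which encodes a protein of G-protein-regulated neurite outgrowth, fell by 0.54 as deposited and by 0.47 after quantile normalization. Gstm3, a glutathione S-transferase, fell by 0.44 and 0.53. Its levels were 0.57, 0.45, 0.63 and 0.45 in BBMP, against 1.71, 0.67, 0.59 and 0.88 in FCO2, so FCO2 array 1 stood above all other arrays. Without that array the Gstm3 difference was -0.19 as deposited (adjusted p = 0.202) and -0.29 after quantile normalization (adjusted p = 0.272). Its call was also lost on both scales without BBMP array 3 or without BBMP array 4. Pogk, derived from a pogo transposase, fell by 0.25 and 0.24 with no overlap. The second, dimmer probe sets differed by -0.27 and -0.12 for Gprin3, by -0.34 and -0.25 for Gstm3, and by -0.07 and -0.01 for Pogk.

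The largest deposited fall was in Cyp2c29, a cytochrome P450 that is abundant in liver, with a difference of -1.08 ± 0.35 (adjusted p = 0.0349) and of -1.13 after quantile normalization (adjusted p = 0.152). Its levels ran from -0.71 to 0.72 in BBMP, against 0.48 to 1.92 in FCO2. The groups overlapped at BBMP array 3 and FCO2 array 3. The liver enzyme Cyp3a11 differed by -1.04 (adjusted p = 0.111). None of the 10 hepatocyte markers tested was called, and albumin, Alb, read 4.47, 3.85, 5.49 and 2.63 in BBMP, against 4.93, 3.58, 2.74 and 3.91 in FCO2. The part of liver transcripts in the Cyp2c29 result was not tested. The remaining largest falls as deposited, none called after quantile normalization, were Hspa4l, Lonrf3, Mns1, Dleu2, Cftr, Peg3, Pwwp3b, Adgb and Iqcg, at -0.87 to -0.33. Mns1, Iqcg and Adgb belong to cilia and sperm flagella. Of the 19 ciliated cell markers tested none was called, with a median of -0.06 as deposited and -0.12 after quantile normalization.

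Of the 22 cold-inducible and heat shock genes tested, Cirbp was called higher and Hspa4l, a chaperone of the Hsp110 family, lower. Hspa4l read 0.29, 0.30, 0.07 and 0.29 in BBMP, against 1.15, 1.26, 0.84 and 1.20 in FCO2. The groups did not overlap, and the difference was -0.87 ± 0.29 (adjusted p = 0.0407), and -0.94 after quantile normalization (adjusted p = 0.156). The deposited Hspa4l call held in 1 of 8 fits that left out an array, the one without BBMP array 2, with adjusted p of 0.0566 to 0.188 in the others. It was also lost on the 10 µl arrays (adjusted p = 0.137) and within the 52 arrays of the batch (adjusted p = 0.0745). Hsph1, another Hsp110 chaperone whose window is shown above, read 2.51, 2.20, 2.07 and 2.92 in BBMP, against 3.60, 3.10, 3.48 and 3.06 in FCO2. These groups did not overlap either, and the difference of -0.89 ± 0.33 was not called (adjusted p = 0.0622). Hsp90aa1, the inducible Hsp90, differed by -0.70, its cochaperone Dnaja1 by -0.64 and the mitochondrial chaperonin Hspd1 by -0.54, none of them called. Hspa1a, the inducible Hsp70, ran from 0.26 to 2.38 in BBMP and from 0.18 to 1.58 in FCO2, so the groups overlapped. The list median was -0.14 as deposited and -0.30 after quantile normalization, against 0.10 and 0.01 over all genes. Without Cirbp, 6 of the other 21 members had a positive difference as deposited and 3 after quantile normalization. ER chaperones of the ER stress and ATF4 list also had negative values, Hspa5 at -0.44 and Hsp90b1 at -0.37, and 1 of its 28 members, the serine synthesis enzyme Psat1, was called, higher.

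Clock genes formed the list with the largest share called higher as deposited, 9 of 21, against 10.4% of all genes, and 0 of 21 after quantile normalization, against 0.2%. Dbp, a D-box activator whose transcript swings widely over the day, had the largest difference of all genes called, 1.66 ± 0.42 (adjusted p = 0.0124), and 1.46 after quantile normalization (adjusted p = 0.131). It read 1.50, 1.24, 2.36 and 2.14 in BBMP, against 0.01, -0.59, 0.56 and 0.61 in FCO2, with no overlap. The deposited Dbp call was lost without BBMP array 3 (adjusted p = 0.142), without BBMP array 4 (0.0663), without FCO2 array 2 (0.0941) and within the 52 arrays of the batch (0.061). Per1, Per2 and Per3, the period repressors, rose by 0.73, 0.48 and 0.55 as deposited, and Tef and Hlf, the relatives of Dbp, by 0.65 and 0.46. Cry2, Bhlhe40 and Usp2 were the other members called, at 0.42, 0.39 and 0.31. Arntl and Clock, the activators of the loop, had differences of -0.27 and -0.23 that were not called. The hour of collection is not given in the labels, and its part in these values was not tested.

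**Figure D3:**
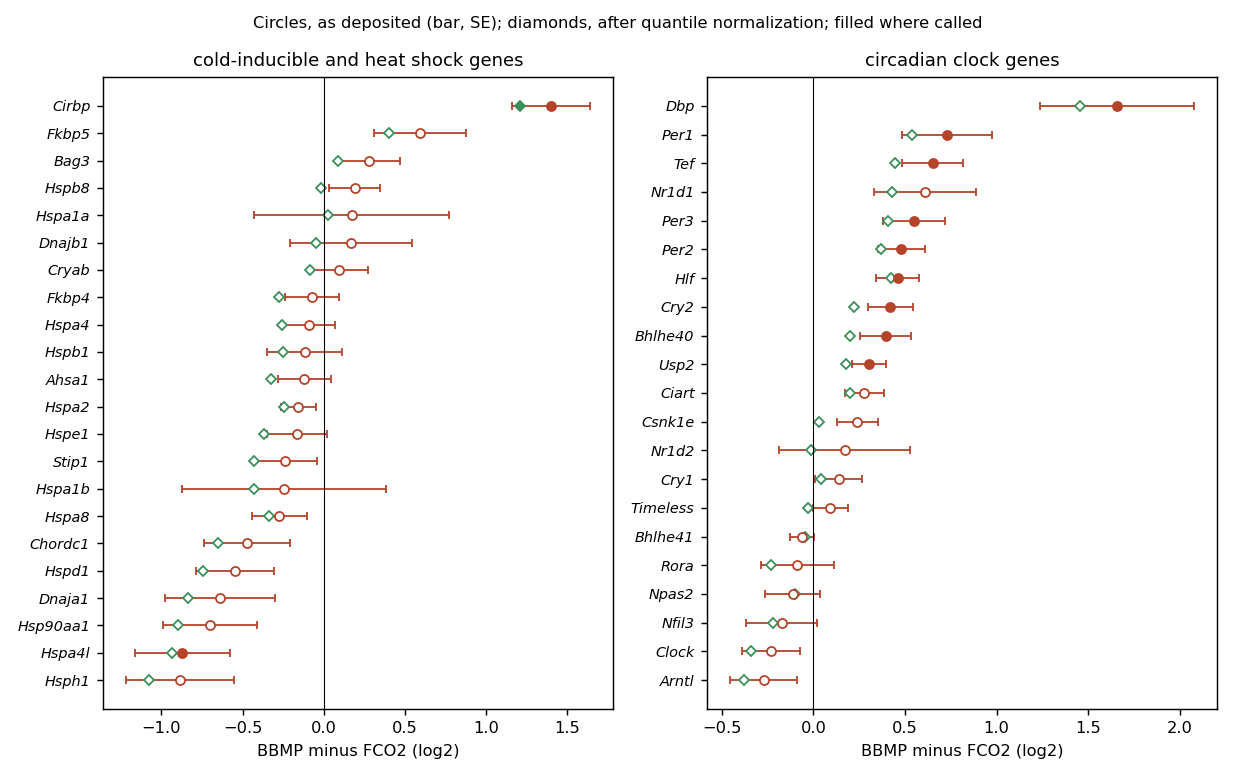
Difference of BBMP minus FCO2 (log2) for each tested member of the cold-inducible and heat shock list and of the clock list; circles with SE bars are as deposited, diamonds after quantile normalization, and filled symbols were called. Cirbp alone is filled on both scales, Dbp heads the clock genes at 1.66 as deposited, and Hsph1 and Hspa4l lie lowest.

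Of 37 NRF2 and glutathione genes tested, 11 were called higher as deposited, the given gene Akr1b8 among them, and Gstm3 lower. Of all genes 10.4% and 0.399% were called so, and the list median was 0.24. After quantile normalization Akr1b8, Nqo1 and Gstp1 were called higher and Gstm3 lower, against 0.2% and 0.0222% of all genes. The median was then 0.08. Akr1b8 was chosen with BBMP above FCO2, so its call is no result about the list. Gpx2, the gastrointestinal glutathione peroxidase that lung epithelium also makes, read 3.13, 2.76, 3.46 and 2.30 in BBMP, against 2.38, 1.97, 1.83 and 2.00 in FCO2. It rose by 0.87 ± 0.19 as deposited (adjusted p = 0.0036), and the difference was 0.64 after quantile normalization (adjusted p = 0.0763). Nqo1, the quinone reductase, read 0.65, 0.16, 0.52 and 0.01 in BBMP, against -0.22, -0.27, -0.19 and -0.25 in FCO2. It did not overlap and rose by 0.57 and 0.51 on the 2 scales. Cbr3, a carbonyl reductase, rose by 0.62 as deposited (0.41 after quantile normalization) and Txnrd1, thioredoxin reductase, by 0.51 (0.28). Ephx1, microsomal epoxide hydrolase, rose by 0.44 (0.25) and Gsr, glutathione reductase, by 0.37 as deposited. Gclc and Gclm, the subunits of the enzyme that limits glutathione synthesis, differed by 0.10 and 0.25, and Hmox1, heme oxygenase, by 0.10, none of them called. Nfe2l2, which encodes NRF2, differed by -0.22 and was not called.

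Acute phase and neutrophil genes were called about as often as all genes or not at all. Of 20 acute phase genes tested 3 were called higher as deposited, near the 10.4% of all genes. They were Lrg1, the protease inhibitor Serpina3n (0.60) and the siderophore-binding lipocalin Lcn2 (0.55). Lrg1 alone was called after quantile normalization. Since Lrg1 was given with the choice of these arrays, its call is no result about the list. None of the 12 neutrophil markers tested was called on either scale. The neutrophil alarmin S100a9 read 3.49, 4.55, 4.51 and 3.48 in BBMP, against 1.72, 2.88, 2.94 and 2.98 in FCO2. The groups did not overlap, but the difference of 1.38 ± 0.57 was not called (adjusted p = 0.0873). Its partner S100a8 differed by 1.31 (adjusted p = 0.0931), the granule protein Ngp by 0.90 and lactoferrin, Ltf, by 0.33. The list median was 0.28 as deposited and 0.21 after quantile normalization. Differences were positive for 11 of 12 neutrophil markers as deposited and 12 of 12 after quantile normalization, against 69.3% and 54.4% of all genes. For acute phase genes these counts were 16 of 20 and 12 of 20. In whole lung RNA, more cells of a type and more RNA per cell cannot be told apart. The part of neutrophils in the Lrg1 result was not tested.

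The response to DNA damage was read from p53 targets and related genes. As deposited 7 of 27 tested were called higher, against 10.4% of all genes, and none after quantile normalization. The list median was 0.26 as deposited and 0.12 after quantile normalization. Ddit4, an inhibitor of mTORC1 that stress and glucocorticoids also induce, rose by 0.74 as deposited (0.54 after quantile normalization). Sesn1 rose by 0.46 (0.27), Phlda3 by 0.44 (0.23) and Zmat3 by 0.31 (0.16). The classical targets Cdkn1a and Mdm2 differed by 0.35 and 0.05 and Ccng1 by -0.28, none of them called. Of 21 cell cycle genes tested, 3 were called higher as deposited, the replication helicase subunits Mcm5 (0.50), Mcm2 (0.30) and Mcm6 (0.27). Their second probe sets were higher too, while the dimmest ones of Mcm5 and Mcm6 differed by -0.22 and -0.10. The mitotic genes Mki67 and Top2a differed by -0.16 and -0.09, not called. None was called after quantile normalization.

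Other lists held from 0 to 5 deposited calls each, where 10.4% of all genes were called higher. Antigen presentation genes had 5 of 15 called higher, among them the immunoproteasome subunits Psmb9 (0.53) and Psmb8 (0.50) and the class II genes H2-Eb1 (0.44) and H2-DMa (0.43), and none after quantile normalization. Matrix and smooth muscle genes had 3 of 26, led by the collagen gene Col6a1 (0.59), and mitochondrial respiration genes 3 of 30, led by the complex III subunit Uqcrc1 (0.52), shares near that of all genes. Glucocorticoid-responsive genes had positive differences in 18 of 18 as deposited and 17 of 18 after quantile normalization, where 69.3% and 54.4% of all genes had one, and 3 were called as deposited, Ddit4, Per1 and Lcn2. Macrophage markers had 2 of 21 called, the complement genes C1qa (0.53) and C1qb (0.50), and T and NK cell markers 2 of 19, Cd3d (0.57) and Cd8b1 (0.28). B and plasma cell markers had 1 of 14, the coactivator Pou2af1 (0.59), and endothelial markers 1 of 20, the factor Sox17 (0.65). These were called as deposited only, in shares near or below that of all genes. Differences as deposited were positive for 15 of 21 macrophage and 17 of 19 T and NK cell markers. They were positive for 13 of 14 B and plasma cell and 18 of 20 endothelial markers, against 69.3% of all genes. After quantile normalization the counts were 11, 16, 13 and 13 in the same order, against 54.4% of all genes. Ighm, the heavy chain of immunoglobulin M, had a difference of 1.31 that was not called (adjusted p = 0.169). None of the 17 alveolar type 2, 14 alveolar type 1, 9 goblet and 7 erythroid markers tested was called on either scale. None of the 16 cardiac muscle markers was called either, but their median was 0.40 as deposited and 0.23 after quantile normalization. Of 17 club cell markers Upk3a was called on both scales, and Scgb1a1 was lower as deposited (-0.32, adjusted p = 0.0366). After quantile normalization Scgb1a1 differed by 0.00, since its rank, near the top of the scale, is the same on these arrays. Scgb3a1 differed by 0.75 and was not called.

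**Figure D4:**
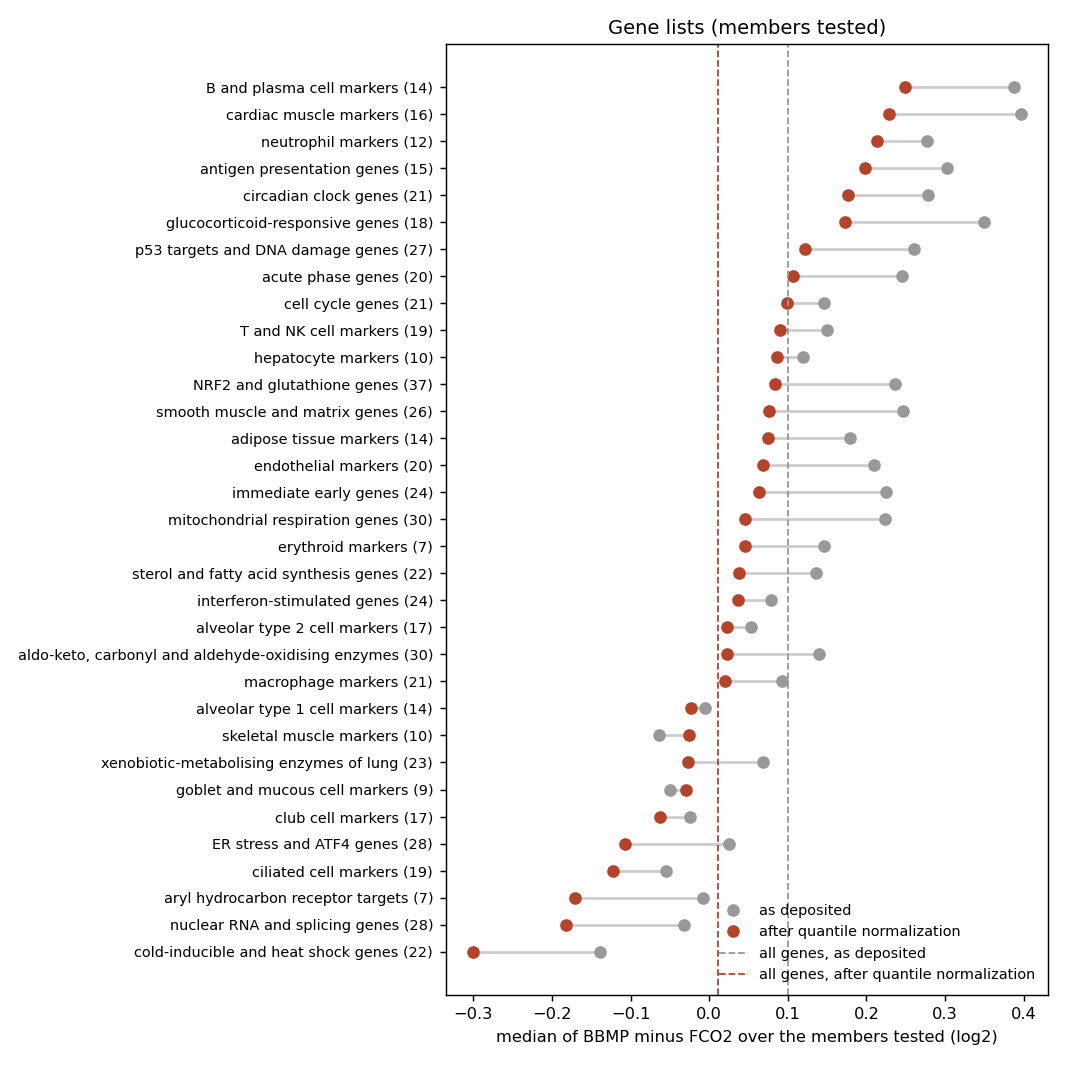
Median difference of BBMP minus FCO2 (log2) over the tested members of each of the 33 gene lists, grey as deposited and red after quantile normalization, with the number of members tested in parentheses; dashed lines are the medians of all genes. The cold-inducible and heat shock list lies lowest on both scales, and B and plasma cell markers lie highest after quantile normalization.

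After quantile normalization only, 6 genes were called: Dazap2 (0.23), Cox6a1 (0.24), Rps9 (0.25), Sectm1b (0.27), Gstp1 (0.29) and Shisa5 (0.31). Gstp1 is the pi-class glutathione S-transferase, Rps9 a ribosomal protein and Cox6a1 a subunit of cytochrome oxidase. Their deposited differences were 0.19 to 0.36, with adjusted p from 0.0686 to 0.171. After quantile normalization further probe sets differed by 0.10 for Cox6a1, 0.06 for Sectm1b, 0.27 for Shisa5, and -0.05 and 0.10 for Rps9.

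The given genes and those called were chosen with BBMP above FCO2, so their places in the batch are a description. Cirbp averaged 1.77 ± 0.37 in BBMP, second of the 13 groups after MALA with 1.94 ± 0.50, and FCO2 was last with 0.37 ± 0.10 (SD, n = 4 each). The groups between ran from 0.41 to 1.14. For Akr1b8, MALA with 2.57 ± 0.92 and BBMP with 2.45 ± 0.59 were first and second and FCO2 twelfth, with 1.36 ± 0.42. For Lrg1 the order was MALA with 3.66 ± 0.59, BBMP with 3.51 ± 0.35, and FCO2 eleventh with 2.44 ± 0.32. Of the 21 genes called higher on both scales, BBMP was the highest of the 13 groups for 11 as deposited and for 4 after quantile normalization, and MALA for 8 and 15. Over all genes BBMP was the highest for 32.2% as deposited and 8.74% after quantile normalization, and MALA for 3.33% and 13.1%. The comparison with FCO2 shares its control arrays with every other chow comparison of the batch. BBMP was therefore also set against the other chow chemicals, which use none of them. The BBMP arrays are the same in each, so for genes chosen with BBMP high these comparisons are no independent check.

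Between BBMP and MALA no gene was called as deposited by limma, while 2977 had an unadjusted p under 0.05. After quantile normalization the secretoglobin Scgb3a2 (0.51) and the club cell P450 Cyp2f2 (0.19) were called higher in BBMP, 0.0148% of genes. As deposited, Cirbp differed by -0.17 between BBMP and MALA (95% interval -0.64 to 0.30) and Akr1b8 by -0.12 (-0.48 to 0.24). Lrg1 differed by -0.15 (-0.60 to 0.29) and Hdac6 by 0.05 (-0.08 to 0.19). Krtap17-1 differed by -0.39 (-0.71 to -0.07) and Upk3a by -0.24 (-0.42 to -0.07), with adjusted p of 0.173 and 0.143. After quantile normalization BBMP and MALA lay further apart for the given genes. Cirbp averaged 1.60 in BBMP and 1.98 in MALA, Akr1b8 2.26 and 2.59, and Lrg1 3.32 and 3.66. Hdac6 averaged 0.79 and 0.88, so its difference turned negative. Krtap17-1 averaged 1.34 and 1.88 on that scale, and Upk3a 0.06 and 0.32. As in BBMP, MALA array 4 stood apart: as deposited MALA read 0.52, 0.57, 0.56 and -0.41 for Upk3a and 2.12, 2.43, 2.25 and 0.63 for Krtap17-1. The 8 NAAC and DIAZ arrays lay between -0.57 and -0.43 for Upk3a, where the FCO2 arrays also lay. The doses and the chemicals differ, so these values are given side by side only.

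Against NAAC, 3 genes were called as deposited, 0.0222% of those tested. Upk3a (0.58) and Krtap17-1 (0.91) were higher in BBMP, and Cyp1b1, an aryl hydrocarbon receptor target, was lower (-0.72). After quantile normalization Sectm1b (0.28), Akr1b8 (0.74) and Hdac6 (0.28) joined them, 0.0444% in all. Against DIAZ, 13 genes were called as deposited (0.0961%), 8 higher and 5 lower, and 8 after quantile normalization (0.0592%). The higher ones included Upk3a (0.54), Krtap17-1 (0.88), Akr1b8 (0.92), Gpx2 (0.85), Pfkfb3 (0.62), the tight junction gene Cldn4 (0.60) and Hdac6 (0.31). The lower ones were Sftpc, Scgb1a1, Cyp2f2, Lyz2 and Tmsb4x (-0.53 to -0.46), all near the top of the scale, and none was called after quantile normalization. Cirbp differed by 0.91 from NAAC (adjusted p = 0.184) and by 0.96 from DIAZ (adjusted p = 0.0647), and was called against neither. The 95% intervals of these differences were 0.44 to 1.39 and 0.49 to 1.43. Lrg1 differed by 0.51 from NAAC and by 0.54 from DIAZ, with adjusted p of 0.519 and 0.908. After quantile normalization Cirbp averaged 1.60 in BBMP, 0.74 in NAAC and 0.76 in DIAZ, and Lrg1 averaged 3.32, 2.85 and 2.87. Neither gene was called on that scale.

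**Figure D5:**
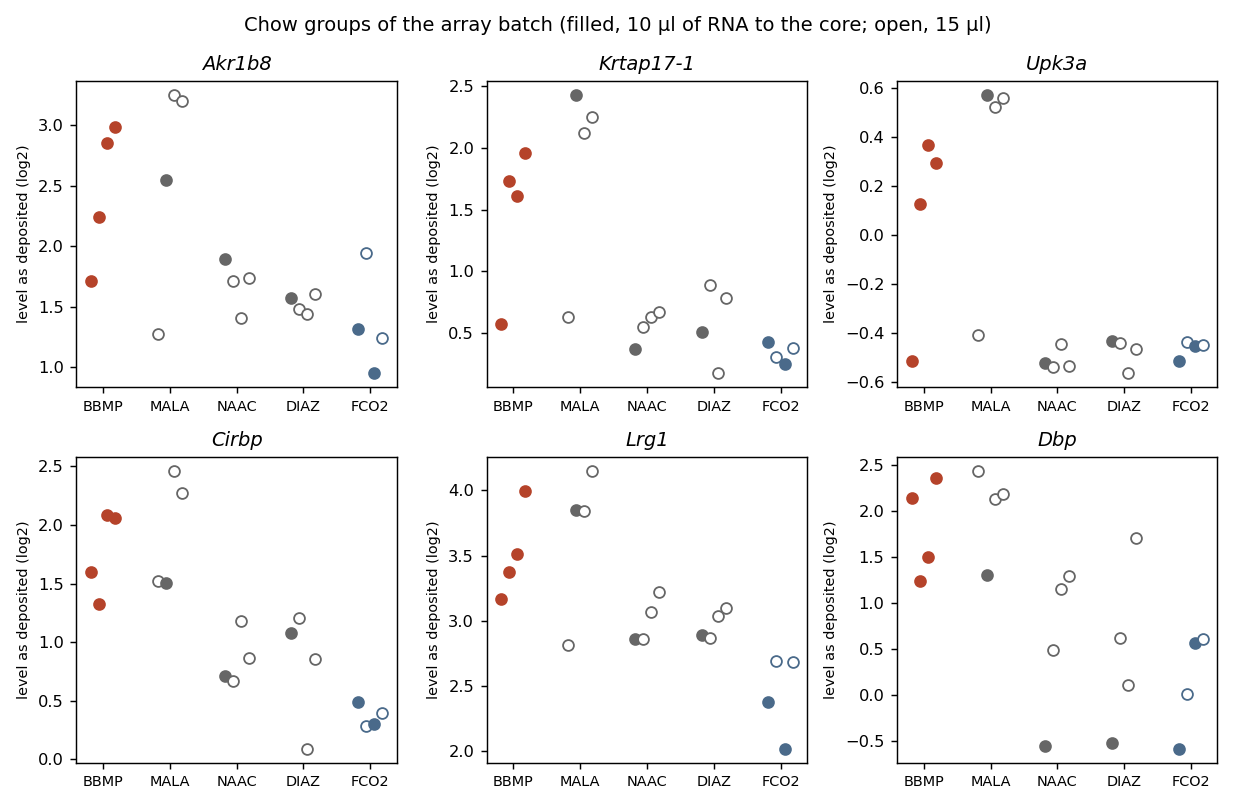
Level as deposited (log2) of 6 genes on the 20 arrays of the chow groups of the batch, with filled points for 10 µl and open points for 15 µl of RNA to the core; points of a group run from left to right by the number in the array title. BBMP and MALA each have 3 arrays above all NAAC, DIAZ and FCO2 arrays for Upk3a and Krtap17-1, and 1 array among or near them.

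The RNA amount sent to the core was the same in all BBMP samples, so it was also compared within the chow groups. With the amount as a block over the 20 chow arrays, Cirbp differed by 1.44 between BBMP and FCO2 as deposited (adjusted p = 0.0045) and by 1.25 after quantile normalization (adjusted p = 0.007). Akr1b8 differed by 1.12 (adjusted p = 0.0407) and 0.91 (adjusted p = 0.098), and Upk3a by 0.49 (adjusted p = 0.0798) and 0.48 (adjusted p = 0.13). Krtap17-1 differed by 1.08 (adjusted p = 0.0333) and 0.91 (adjusted p = 0.0847), and was not called after quantile normalization in this fit. The fit takes its spread from the 20 chow arrays alone. The SE of the Krtap17-1 difference after quantile normalization was 0.32 in it, against 0.16 over the whole series. No fit of the 20 arrays without the block was run, so changes of call cannot be put down to the RNA amount. Dbp and Hspa4l were called after quantile normalization in this fit, at 1.92 (adjusted p = 0.00616) and -0.90 (adjusted p = 0.00685). In the deposited fit with the block, 10 µl minus 15 µl was -0.08 for Cirbp, -0.07 for Akr1b8 and -0.16 for Lrg1, none called. For Dbp it was -0.98 (adjusted p = 0.327). On the 10 µl arrays alone Akr1b8, Hdac6, Upk3a, Krtap17-1 and Tmem43 were the 5 genes called after quantile normalization.

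Over the 52 arrays of the batch, with each group's mean removed, the level most like Cirbp was that of Phykpl (Pearson r = 0.82), followed by the DNA glycosylase gene Mpg (0.81) and Tmem203 (0.79). Akr1b8 went with Gpx2 (0.85), Txnrd1 (0.83) and the omega-class glutathione transferase Gsto1 (0.83). Lrg1 went with Lcn2 (0.81), Fcgr2b (0.73) and Glipr1 (0.73). These are descriptions over arrays that share a batch and a common centring. Tmem203 itself rose by 0.59 in BBMP as deposited, Txnrd1 by 0.51 and Mpg by 0.30, while Gsto1, Fcgr2b and Glipr1 were not called.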

How the data were processed

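Arrays of mouse lung RNA (Trizol, RNeasy, standard Affymetrix labelling) were read from the deposited value table. The deposited values run below 0 and are taken as log2. Their base, normalization and software are not given in the sources used here, and every fold rests on base 2. Probe sets were named by the array annotation (34958 of 45101 have 1 symbol). Where a gene had several probe sets, the one brightest on average stood for it (18194 genes). Dimmer probe sets of some named genes, such as H2-DMa, Psmb8 and Lonrf3, showed little or no difference. The 13524 genes with at least 3 arrays above the median of all values were tested. A single model with a mean for each of the 48 groups was fitted to the whole series with limma 3.58.1 in R 4.3.3, and a gene was called at a Benjamini-Hochberg adjusted p under 0.05 over all genes tested. The code was tested on simulated data. The same fit was run after quantile normalization within the batch. The number of arrays limits the precision.

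The groups, the 33 gene lists and the 3 given genes were chosen with earlier results of these data known. Lists are described by counts and medians, without a test. Named genes are the 3 given genes, the 12 largest called rises and falls, up to 4 members of each list, the 3 genes most like each given gene, and further members or genes called on both scales or in few-gene results, which were named after their values were seen. Alternatives were no filter, the mean of probe sets, the 2 groups or the batch alone, array quality weights (whose default estimate did not converge), the RNA amount, and each array left out. Windows around gene starts came from RefSeq for 86 of 98 named genes.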

Additional observations from a re-analysis of the deposited data

Results flagged for a closer look

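In groups of 4 arrays, 196 groups of named genes were checked for 1 array far from the other 3, and chance alone gives about 1 in 20. Only 5 were found. BBMP array 3 was low for Hspa4l (gap over range 0.941) and high for Lcn2 (0.859). FCO2 array 1 was low for S100a9 (0.922) and high for Mfap5 (0.933), and FCO2 array 2 was low for Mcm2 (0.925). BBMP array 3 is also the array whose absence lowered the deposited count of calls most.

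The next values compare BBMP directly with another chow chemical of the batch, as deposited and by limma. They use the same BBMP arrays on which these genes were chosen, so they are no independent check. Akr1b8 differed by 0.92 from DIAZ, Gpx2 by 0.85, Pfkfb3 by 0.62 and Hdac6 by 0.31. Krtap17-1 differed by 0.91 from NAAC and by 0.88 from DIAZ, and Upk3a by 0.58 and 0.54. Scgb1a1 differed by -0.52 from DIAZ as deposited and by 0.05 after quantile normalization.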

How the results depend on the processing

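The count of 1465 genes between BBMP and FCO2 as deposited was 30 after quantile normalization, 149 within the batch's 52 arrays, 633 on 10 µl arrays alone, 2787 with the amount as a block, and 8 to 3084 with an array left out. The count of 30 after quantile normalization was 3 to 33 with an array left out. Under alternatives added after seeing the data it was 0 within the batch's 52 arrays and 5 on 10 µl arrays. With the amount as a block, also added then, it was 1130 (548 higher and 582 lower). On either scale the fit with the block used the 20 chow arrays only. Between BBMP and NAAC, 3 calls became 6 after quantile normalization, 6 with the mean of probe sets, 1 within the batch, 0 on the 2 groups alone, and 2 to 12 with an array left out. Between BBMP and MALA, 0 calls became 2, 4 with the mean of probe sets, and 0 to 398 with an array left out. Between BBMP and DIAZ, 13 became 8 after quantile normalization, 0 within the batch, 0 on the 2 groups alone, and 4 to 26 with an array left out. The beta-actin difference of -0.202 was -0.146 after quantile normalization (exact permutation p = 0.0571, where 4 against 4 arrays allow 0.0286). With an array left out it was -0.223 to -0.170, each with an exact p of 0.0571, the smallest that 3 against 4 arrays allow. The planned array quality weights could not be fitted: limma's default estimate stopped before it converged, gave BBMP array 1 a weight of 0.0421 and led to 3234 (FCO2), 7 (NAAC), 480 (MALA) and 18 (DIAZ) calls, which are not used. The gene-by-gene estimate, added after seeing the data, gave 6461, 3503, 3749 and 775 calls, with a weight of 7.55 for BBMP array 1 and 0.572 to 0.76 for the other BBMP arrays, so these counts lean on 1 array. No BBMP minus FCO2 difference of the 98 named genes changed sign under the alternatives run on the deposited values or after quantile normalization. After quantile normalization the median of all genes turned to -0.0027 against MALA (0.11 as deposited) and against DIAZ (0.03), and list medians turned to -0.03 for xenobiotic enzymes (0.07) and -0.11 for ER stress genes (0.02). Scgb1a1 against DIAZ turned from negative to positive, and Hdac6 against MALA from positive to negative. Of 98 named genes, 53 lost and 6 gained their call after quantile normalization. The causes were not tested. No paired analysis was possible because the labels give the groups no shared replicate numbers.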

Other observations

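Array titles carry a number whose meaning the labels do not state. The BBMP titles read 2, 4, 6 and 10, and the MALA titles 33, 36, 38 and 39. In that order Akr1b8 was 1.72, 2.24, 2.85 and 2.99 on the BBMP arrays and 1.28, 2.55, 3.25 and 3.20 on the MALA arrays. Gpx2 was 2.30, 2.76, 3.13 and 3.46 in BBMP and 1.91, 3.12, 3.55 and 3.71 in MALA. The array of the lowest number was also the lowest of its group for Krtap17-1, Upk3a, Nqo1, Ces1g and Lrg1 in BBMP and in MALA. For Cirbp it was not the lowest in either group. In NAAC, with 13, 15, 17 and 19, Akr1b8 was 1.89, 1.72, 1.41 and 1.74. This was noticed after the values were seen and was not tested.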
